A study of Mus musculus with 2 samples.

Results

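A set of 7 globin genes was followed through E11.5 mouse embryos, cell by cell and suspension by suspension. They are Hba-x, Hba-a1 and Hba-a2 of the alpha cluster and Hbb-y, Hbb-bh1, Hbb-bs and Hbb-bt of the beta cluster. All 7 were found among the 21937 genes of the deposited count matrices. Their UMIs (unique molecular identifiers, 1 for each captured transcript) were read in the 144 cells annotated Erythroblast and the 60 annotated Erythrocyte. The other 5474 of the 5678 annotated cells were used to measure globin RNA outside red cells. The cells came from 4 suspensions of whole embryos that were tagged with CellPlex oligos and run as 1 droplet library. F0_8 and F0_9 were founder embryos, which developed from fertilized eggs given piggyBac transposase mRNA and a donor plasmid with a barcoded EGFP driven by the ubiquitous CAG promoter. F1_1 and F1_mix were embryos of the next generation that carried the same kind of transgene, and F1_mix pooled 2 embryos. Every suspension was labelled transgenic and E11.5, so no suspension without the transgene was at hand. The injected eggs were C57BL/6J, and the mates of the founders that gave the F1 embryos are not given in the sources used here. Generation, litter and day of dissociation cannot be told apart in these labels.

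Hemoglobin pairs alpha-type with beta-type chains, and the genes for each change in the course of development. The first red cells of the mouse, the primitive erythroid cells, arise in the yolk sac, circulate with a nucleus and make embryonic chains from Hba-x (zeta), Hbb-bh1 (beta-h1) and Hbb-y (epsilon-y). Definitive erythroid cells mature in the fetal liver and later in the bone marrow, and make adult chains from Hba-a1, Hba-a2, Hbb-bs and Hbb-bt. Primitive cells also turn on alpha genes of the adult type and, within their embryonic beta genes, move from Hbb-bh1 to Hbb-y as they mature. At midgestation both kinds of red cell are present in the same embryo.

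The genes lie on 2 chromosomes of the GRCm38 build, with the embryonic genes of each cluster before the adult ones. On the minus strand of chromosome 7, Hbb-y (chr7:103851754-103853207) is followed by Hbb-bh1 (chr7:103841638-103843162), Hbb-bs (chr7:103826523-103827928) and Hbb-bt (chr7:103812524-103813923). On the plus strand of chromosome 11, Hba-x (chr11:32276600-32278116) precedes Hba-a1 (chr11:32283672-32284486) and Hba-a2 (chr11:32296492-32297310). To show what the adult and embryonic genes of a locus share and where they differ, the 120 bases just before the start site of the genes that dominate each kind of cell are shown. They are RefSeq sequences of GRCm38.p6, written 5′ to 3′ on the strand of the gene. Capitals mark CACCC, the letters bound by erythroid Klf1, CCAAT, and the TATA-type letters ATATAA, searched on both strands with no match overlapping another.
Hbb-y, chr7:103853208-103853327, embryonic: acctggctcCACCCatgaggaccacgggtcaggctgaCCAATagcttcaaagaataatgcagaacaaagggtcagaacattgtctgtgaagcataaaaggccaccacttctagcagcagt
Hbb-bs, chr7:103827929-103828048, adult: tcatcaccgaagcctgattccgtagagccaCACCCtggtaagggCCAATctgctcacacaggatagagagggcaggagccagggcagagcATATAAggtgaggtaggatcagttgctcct
Hbb-bt, chr7:103813924-103814043, adult: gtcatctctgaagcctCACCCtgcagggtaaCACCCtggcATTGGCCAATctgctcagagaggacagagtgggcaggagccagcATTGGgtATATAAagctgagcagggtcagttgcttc
Hba-x, chr11:32276480-32276599, embryonic: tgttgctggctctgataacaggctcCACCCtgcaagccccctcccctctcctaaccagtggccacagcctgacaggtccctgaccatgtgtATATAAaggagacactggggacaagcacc
Hba-a1, chr11:32283552-32283671, adult: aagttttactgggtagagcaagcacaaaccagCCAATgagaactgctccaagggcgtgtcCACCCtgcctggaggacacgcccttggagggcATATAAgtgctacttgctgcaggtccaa

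A window was at hand for 6 of the 7 genes. CACCC was present in 6 of 6 globin windows, against 31.7% of the 32851 windows of the same length before other starts. CCAAT was present in 5 of 6, all but Hba-x, against 21.3% of windows. ATATAA was present in 5 of 6, all but Hbb-y, against 4.47% of windows. Hbb-bt had 2 CACCC and 3 CCAAT matches where Hbb-bs had 1 of each, and 88 of 119 aligned bases (73.9%) were identical between them. The window of Hba-a2 equalled that of Hba-a1 over 117 of 117 bases with a shift of 3. The copies are also alike in the part that a 3′ library reads. Of the 50-base words in the last 300 bases of the annotated Hba-a1 transcript, 80.1% also occur in Hba-a2, and 36.7% of those of Hbb-bs occur in Hbb-bt. Reads that fit both copies are not counted for either, so the split between Hba-a1 and Hba-a2, and to a lesser degree between Hbb-bs and Hbb-bt, is uncertain. Hba-x, Hbb-y and Hbb-bh1 share 0% of such words with any other gene of the set. The adult genes may thus be undercounted beside them, in levels and in every adult share below. The size of this was not tested.

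The median cell held between 10880 and 13267 gene UMIs in the 4 suspensions, and 0 cell barcodes were shared between them. Both red types carried the genes that define erythroid cells: all 11 measured erythroid markers were detected in each, with Alas2, the first enzyme of heme synthesis in red cells, at 2.71 UMIs per 10000 outside globin genes in Erythroblast and 25.3 in Erythrocyte. Of 8 macrophage markers 7 were at 0 in each type. Of 5 endothelial markers 2 were at 0 in Erythroblast and 5 in Erythrocyte, and of 4 liver markers 2 and 4. The summed markers of megakaryocytes, mesenchyme, neurons and epithelium each stood at 0.566 per 10000 or less over all cells of either type. Names of the types are those of the authors' annotation. The clusters behind them were made with the globin genes included, so differences between the types are described below and not tested.

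Erythrocyte cells were filled with embryonic globin RNA. Levels are UMIs of a gene per 10000 UMIs of all genes in the summed cells of a suspension. Wherever 4 values follow each other, the founders F0_8 and F0_9 come first, then F1_1, then F1_mix. A transcript gives 1 UMI at its 3′ end whatever its length, but a transcript whose reads fit both copies of a pair is not counted. Levels of different genes thus compare counted transcripts, and those of adult genes may be too low beside embryonic ones. Hbb-y, the epsilon-y gene, stood at 3679.6, 3739, 2849 and 3100.3, the highest of the 7 in each suspension. Hba-x, its alpha-type partner, stood at 1567, 1859, 1870.2 and 1924 and was second in each. Together these 2 genes made up most globin UMIs of the type, and their levels spanned less than 1.5-fold over the suspensions.

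The third embryonic gene, Hbb-bh1, was far lower in Erythrocyte than Hbb-y, at 191, 229, 482 and 429.7. Hbb-bh1 and Hba-x had both founder values below both F1 values, Hba-x by a narrow margin that is lost without the 4 cells of adult kind described below (1801.7 and 1967 in the founders). The adult-type alpha genes were already substantial. Hba-a1 reached 923, 702, 389.6 and 463, and Hba-a2 589, 415, 214 and 265. Adult beta genes were lower and more uneven, with Hbb-bt at 526, 328, 103.3 and 158 and Hbb-bs at 616, 249.8, 8.47 and 37.7. Both founder values lay above both F1 values for the 4 adult genes. How many of all genes separate in this way was not counted. An exact two-sided permutation test of 2 against 2 suspensions cannot give a p under 0.3333. The founder levels of Hbb-bs rest largely on those 4 cells, which held 11287 of its 14631 UMIs in F0_8 and 5758 of 12795 in F0_9. Without them Hbb-bs was at 162 and 145 in the founders and Hbb-bt at 317 and 279, so that Hbb-bt was the higher in F0_8 too, and both genes still lay above both F1 values.

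**Figure D1:**
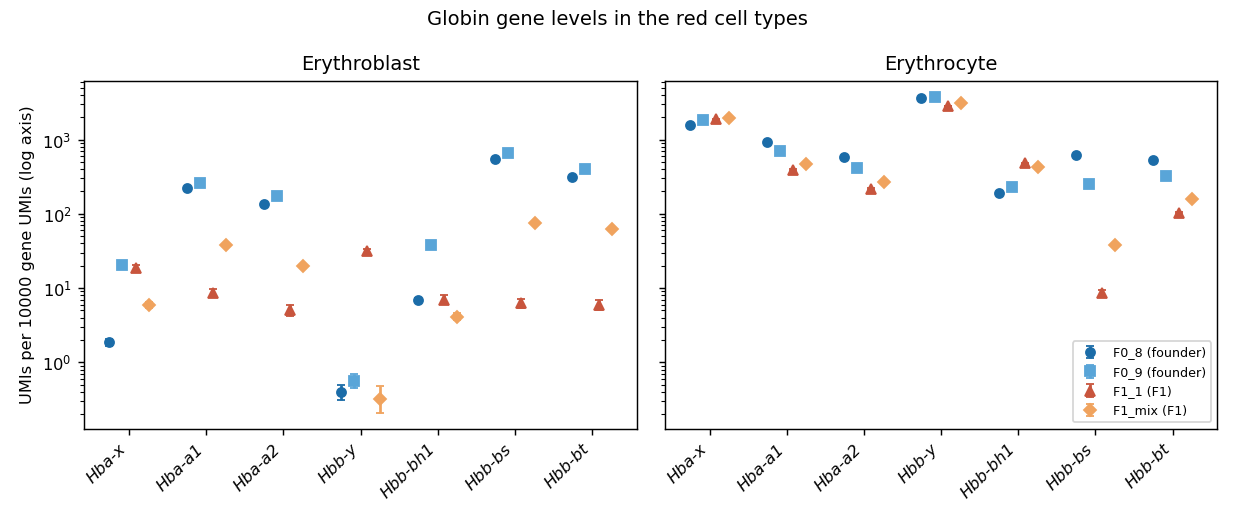
UMIs of each globin gene per 10000 gene UMIs (log axis) in the summed Erythroblast (left) and Erythrocyte (right) cells of the 4 suspensions; bars are exact Poisson 95% intervals and cover counting error only. Adult genes stood higher than embryonic genes in Erythroblast cells of F0_8, F0_9 and F1_mix, Hbb-y and Hba-x led in Erythrocyte cells of all 4 suspensions, and the adult genes of F1_1 lay lowest in both types.

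Erythroblast cells showed the reverse order in all suspensions but F1_1. Hbb-bs led in F0_8, F0_9 and F1_mix, at 543, 669 and 76.3, and stood at 6.21 in F1_1. Hbb-bt followed at 312, 402, 5.92 and 63.2. Hba-a1 stood at 224, 264, 8.55 and 38.1 and Hba-a2 at 137, 171, 5.0005 and 20.05. Founder suspensions lay above F1 suspensions for each of these 4 adult genes, which was not counted over all genes either, and F1_1 was the lowest. This suspension held 7 Erythroblast cells, against 64, 52 and 21 in the others, so its values rest on very few cells.

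Embryonic genes were minor in Erythroblast cells of F0_8, F0_9 and F1_mix but not in F1_1. Hbb-y stood at 0.399, 0.569 and 0.322 in F0_8, F0_9 and F1_mix, beside 0.368 in the cells of deep types outside the red lineage, defined below. In F1_1 it stood at 31.4, and 876 of its 884 UMIs came from a single cell. Hbb-bh1 stood at 6.88, 37.8, 6.99 and 4.12, and Hba-x at 1.87, 20.6, 18.9 and 5.86. The same deep types had 0.0350 of Hbb-bh1 and 0.179 of Hba-x, below every Erythroblast value of these genes. In F1_1 the same cell held 528 of the 533 Hba-x and 187 of the 197 Hbb-bh1 UMIs. Without it the other 6 cells stood at 0.181 for Hba-x (95% Poisson interval 0.0588 to 0.423), 0.290 for Hbb-y and 0.362 for Hbb-bh1 (0.174 to 0.666), and at 2.61 for Hba-a1, 0.942 for Hba-a2, 6.16 for Hbb-bs and 4.93 for Hbb-bt. Hba-x and Hbb-y were then not distinguishable from the deep types.

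Cell by cell, the adult beta share set most Erythroblast cells apart from most Erythrocyte cells, types whose clusters were made with these genes included. The adult beta share is the sum of Hbb-bs and Hbb-bt over all 4 beta genes, and the adult alpha share that of Hba-a1 and Hba-a2 over all 3 alpha genes, each in cells with 20 or more UMIs of the locus. Of 125 Erythroblast cells with enough beta UMIs, 117 had an adult beta share above 90%, 7 lay between 10% and 90%, and 1 lay below 10%. Their median was 99.7%. Of 60 Erythrocyte cells, 45 lay below 10%, 12 between and 3 above 90%, with a median of 6.61%. The lower limit cuts through the Erythrocyte cells, 17 of which lay within 2 points of a limit, whereas 8 of the Erythroblast cells did. The alpha locus was less polarized. Of 118 Erythroblast cells with enough alpha UMIs 109 lay above 90%, but 56 of 60 Erythrocyte cells lay between 10% and 90%, and 0 lay below 10%.

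**Figure D2:**
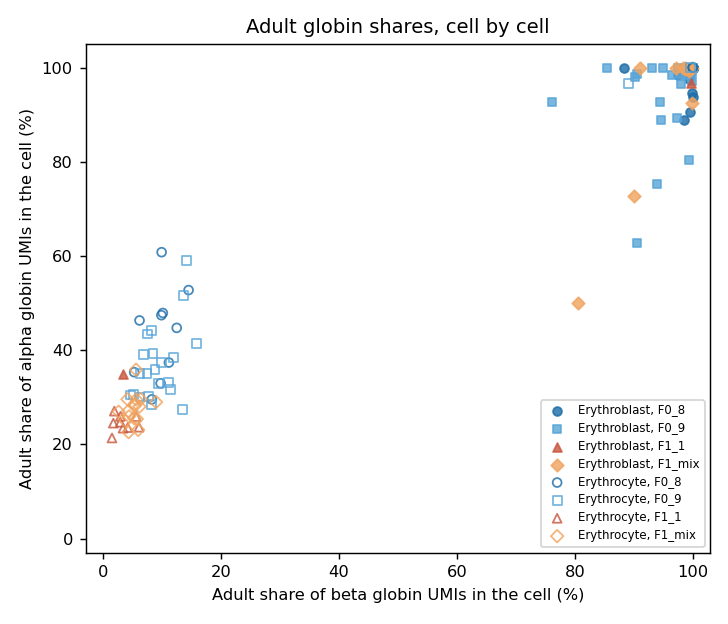
Adult share of beta globin UMIs against adult share of alpha globin UMIs in each cell with 20 or more UMIs of both loci; filled symbols are Erythroblast, open symbols Erythrocyte, and colour and shape give the suspension. The 56 Erythrocyte cells of embryonic kind lie between 1.49% and 15.8% on the beta axis and between 21.4% and 60.8% on the alpha axis; most Erythroblast cells lie near 100% on both.

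A few cells stood apart from the rest of their type. Of the Erythrocyte cells 4, 2 from F0_8 and 2 from F0_9, had adult beta shares of 100%, 100%, 99.7% and 89.1% and adult alpha shares of at least 96.6%. Both F0_8 cells had 0 UMIs of Hba-x, Hbb-y and Hbb-bh1 beside 4992 and 6295 of Hbb-bs. An F0_9 cell held 734 UMIs of Hbb-bh1 and 93 of Hba-x but 0 of Hbb-y, beside 3797 of Hbb-bs. Sox6, a repressor of embryonic beta genes in definitive cells, was at 4.23 UMIs per 10000 outside globin genes in these 4 cells (9 UMIs, 95% Poisson interval 1.93 to 8.02), against 0.176 (0.0758 to 0.346) in the other 56 Erythrocyte cells. Bcl11a, its partner in that role, was at 1.41 (3 UMIs, 0.291 to 4.12) against 0.0659 (0.0136 to 0.193). Among Erythroblast cells, a shallow F1_1 cell of 5877 gene UMIs had an adult beta share of 3.28% and an adult alpha share of 34.98%, inside the range of the Erythrocyte cells. It held 876 UMIs of Hbb-y, 528 of Hba-x and 187 of Hbb-bh1, and globin genes took 32.5% of its UMIs. An F1_mix cell of 44304 gene UMIs had a share of 30% from only 40 beta UMIs, of which 28 were Hbb-bh1 and 0 Hbb-y. Its adult alpha share was 100%, and its beta share lay outside the range of the Erythrocyte cells of embryonic kind.

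Erythroblast cells with embryonic globin had Hbb-bh1 without Hbb-y. Of the 144 cells, 50 (34.7%, exact 95% interval 27.0 to 43.1) held 5 or more UMIs of Hbb-bh1 and 29 (20.1%, 13.9 to 27.6) of Hba-x, against 5 (3.47%, 1.14 to 7.92) of Hbb-y. Hbb-bh1 was found at this count in 0 of the 4103 cells of the 10 deep other types with under 1% globin, which allows a share of up to 0.0731% (3 cells of the total), and at their level a median Erythroblast cell would hold 0.102 UMIs of it. The 2 cells of these types with more globin, described below, held 861 and 899 UMIs of Hbb-bh1, so the 0 depends on leaving them out. At 5 or more UMIs, 25 Erythroblast cells had both Hbb-bh1 and Hba-x, 25 only Hbb-bh1, 4 only Hba-x and 90 neither. Only 4 of the 50 had 5 or more UMIs of Hbb-y too. By suspension, 13 of 64, 25 of 52, 2 of 7 and 10 of 21 cells had Hbb-bh1. Even so, these cells were mostly adult in kind. In those with 20 or more beta UMIs the median adult beta share was 98.7% (49 cells), against 99.9% in the 76 such cells with fewer than 5 Hbb-bh1 UMIs, and Hbb-bh1 made up a median of 1.08% of the beta UMIs of the 49 and at most 70%. In all 50 cells globin genes took a median of 21.1% of UMIs (quartiles 8.25 and 39.4), against 3.19% (0.282 and 12.1) in all 94 with fewer than 5 Hbb-bh1 UMIs, at similar depths of 28360.5 and 29405 gene UMIs. Cells rich in globin RNA reach 5 UMIs of a globin gene more easily, and Hbb-bh1 is in the denominator of the adult beta share. Both differences thus follow in part from the split. By range of globin content the counts were uneven between suspensions, which was not tested. Under 1% globin, 4 of 12 F1_mix and 1 of 6 F1_1 cells had 5 or more Hbb-bh1 UMIs, and none of the 10 and 6 founder cells did. At 1 to 10% it was 5 of 8 in F1_mix, 1 of 24 in F0_8 and 5 of 18 in F0_9. The range of 10% or more held 34 of the 50 cells, 12 of 30 in F0_8, 20 of 28 in F0_9 and the only cell of each F1 suspension.

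**Figure D3:**
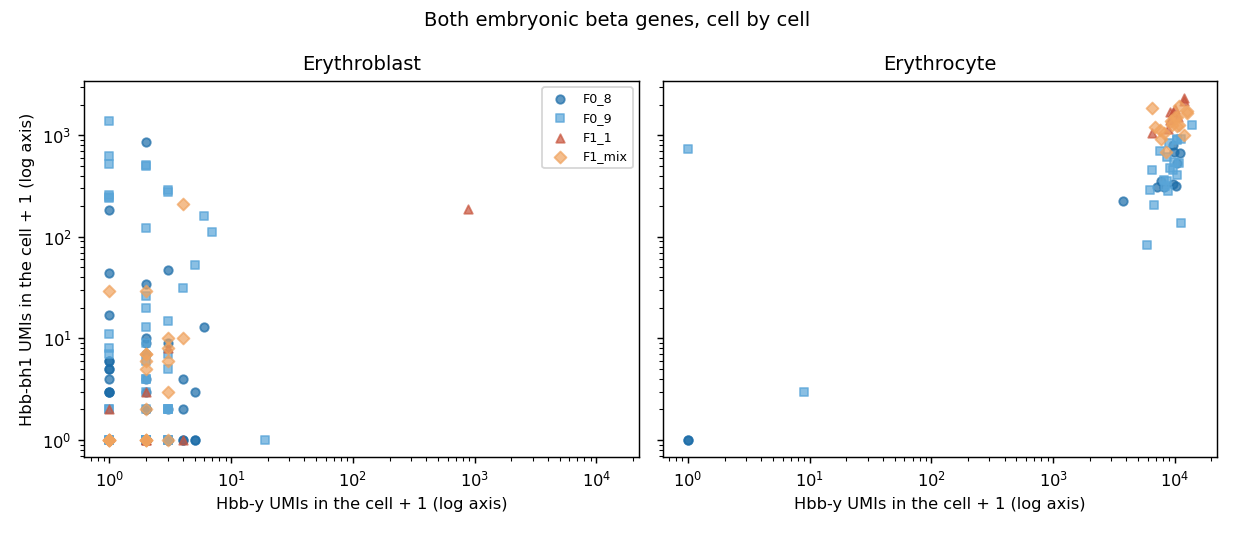
UMIs of Hbb-bh1 against UMIs of Hbb-y in each Erythroblast (left) and Erythrocyte (right) cell, each with 1 added and on log axes, with colour and shape for the suspension. Erythroblast cells reach 1386 Hbb-bh1 UMIs while all but 1 of them hold 18 or fewer of Hbb-y; in Erythrocyte cells both genes are high except in the 4 cells of adult kind.

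Erythroblast cells spanned a wide range of globin content, from 0.0109% to 67.1% of UMIs, and the mix of globin genes differed along it. The 34 cells under 1% had Kit, the stem cell factor receptor, at 0.598 and Myb, a transcription factor of early progenitors, at 1.49 UMIs per 10000 outside globin genes. Both were at 0.0458 and 0.177 in the 50 cells of 1 to 10%, and in the 60 cells of 10% or more Kit was at 0 (0 UMIs, which allows up to 0.0302, the level of 3 UMIs) and Myb at 0.0101. Slc4a1, the band 3 anion exchanger of the red cell membrane, went from 0.00747 to 2.66 and 8.97, and Alas2 from 0.0523 to 1.10 and 8.74. Bcl11a went the other way, from 3.45 to 2.65 and 1.25, while Sox6 went from 0.321 to 2.99 and 5.88 and Klf1, which activates adult beta globin, from 2.44 to 3.73 and 5.34. The 95% counting intervals of these neighbouring ranges did not overlap, apart from those of Kit in the upper 2 ranges. These are descriptions of ranges cut from globin content itself, and they share their cells between suspensions unequally.

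The adult beta share of summed UMIs was 93.8%, 98.7% and 97.3% in the 3 ranges. In the lowest range a few cells carried the sum: the 6 cells with 100 or more beta UMIs held 1079 of 1612. The 19 cells with under 20 beta UMIs had an adult beta share of 77.5% (107 of 138 UMIs), with single cells from 0% to 100%. In the deep other types it was 50.9%, and the part of such RNA in these low counts was not tested. The cells under 1% held a median of 21 globin UMIs each, and Hbb-y was at 0.269 per 10000 in them. Hbb-bt made up 42.6%, 50.1% and 34.7% of adult beta UMIs in the 3 ranges. Within F0_8 it went from 54.1% to 52.1% and 33.5% and within F0_9 from 62.2% to 49.2% and 35.4%, lowest in both founders where globin RNA was highest. In F1_mix it was 22.8%, 45.2% and 48.7%, but the first value rests on a cell with 314 Hbb-bs and 0 Hbb-bt UMIs, without which it was 52.3%, and the last on a single cell, so no direction can be read there. The ranges were filled unequally by generation: cells under 1% made up 15.6% and 11.54% of Erythroblast cells in the founders but 85.7% and 57.1% in F1_1 and F1_mix. This difference moves with every founder against F1 value of the type below, and its part in them was not tested.

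The mix of globin genes in Erythrocyte cells differed between suspensions. The median cell had an adult beta share of 10.0109% and 8.79% in the founders and of 2.93% and 5.34% in F1. The median adult alpha shares were 46.9%, 35.8%, 24.5% and 27.5%. Hbb-bh1 made up a median of 4.59%, 4.78%, 14.8% and 12.0% of embryonic beta UMIs. All 3 medians set both founders on one side of both F1 suspensions, with more adult alpha, more adult beta and less Hbb-bh1 in founders. The cells of F1_1 lay within a narrow range, with adult alpha shares of 21.4% to 27.1% and Hbb-bh1 shares of 11.7% to 16.3%. In F0_8 the Hbb-bh1 shares of 3.03% to 7.66% all lay below those of F1_1.

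**Figure D4:**
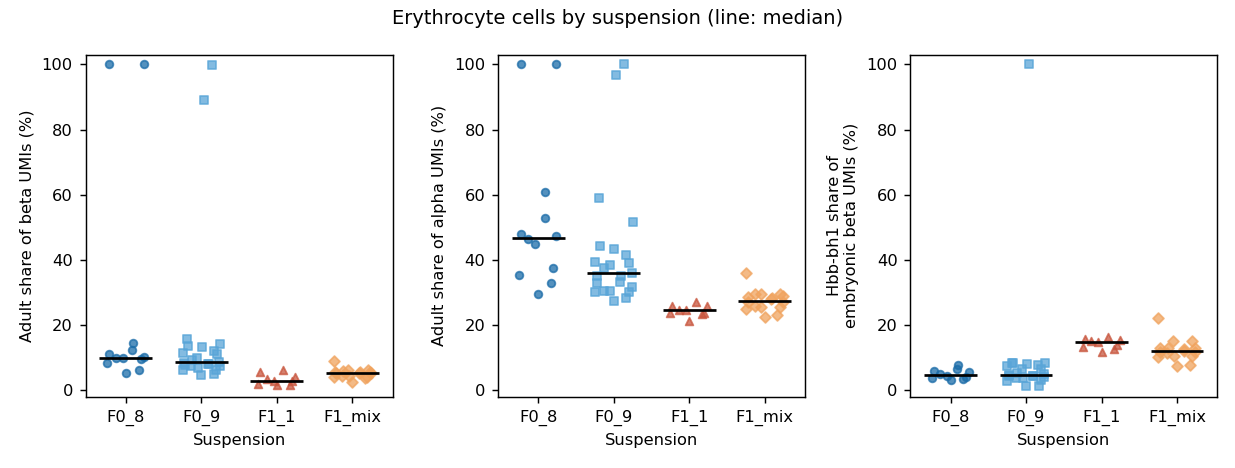
Adult beta share, adult alpha share and Hbb-bh1 share of embryonic beta UMIs (percent) in each Erythrocyte cell by suspension, with the median as a line; the third panel holds cells with 20 or more embryonic beta UMIs. Medians of F0_8 and F0_9 lie above those of F1_1 and F1_mix in the first 2 panels and below them in the third; points near 100% are the cells of adult kind.

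Links between the shares were also read within each suspension. Among the 56 Erythrocyte cells of embryonic kind, Spearman's rho between adult beta share and Hbb-bh1 share was −0.79 (10 cells), −0.58 (21), −0.43 (9) and −0.31 (16), negative in all 4 suspensions. Between adult beta and adult alpha share, which use different genes, rho was 0.50, 0.36, 0.03 and 0.31. The points share 1 library, and Hbb-y and Hbb-bh1 enter both shares of the first pair, so these are descriptions. Depth went with the shares across suspensions, with a median of 21475.5 and 22074 gene UMIs per Erythrocyte cell in the founders against 34126 and 31094 in F1. So did globin content, at medians of 82.4% and 77.8% against 57.2% and 65.2%. The part of depth and globin content in the differences was not tested.

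The 2 adult beta genes were not used in a fixed proportion. Hbb-bt made up a median of 69.0%, 59.6%, 92.7% and 84.2% of adult beta UMIs in Erythrocyte cells, and of 36.8%, 38.4%, 60% and 48.7% in Erythroblast cells, where the F1_1 median rests on 3 cells. Within each suspension the Erythrocyte median was the higher, but the F1_1 Erythroblast value lay above the F0_9 Erythrocyte value. In F1_1 Erythrocyte cells Hbb-bs was nearly absent, at 260 UMIs beside 3169 of Hbb-bt. Single cells of embryonic kind ranged from 19.4% to 99.6%. The median Hba-a1 share of adult alpha UMIs was 62.3%, 63.7%, 63.2% and 63.9% in Erythrocyte cells and 66.2%, 64.1%, 67.0% and 70.4% in Erythroblast cells, with single cells from 52.5% to 70.4% and from 51.9% to 88.7%. Alpha-type UMIs were 38.1%, 39.6%, 41.8% and 41.6% of all alpha and beta UMIs in Erythrocyte, and 29.6%, 29.1%, 39.1% and 30.8% in Erythroblast. Hba-a1 and Hba-a2 share the most 3′ words of the set, so these alpha values may be too low.

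Founder and F1 suspensions were compared, 2 against 2, on the summed counts of each type with edgeR's quasi-likelihood test, adjusted over all genes tested. In Erythroblast all 4 adult genes were higher in founders. Hba-a1 was higher by 3.71 on the log2 scale (SE 0.55, adjusted p 0.00953), Hba-a2 by 3.94 (SE 0.52, adjusted p 0.00839), Hbb-bs by 4.20 (SE 0.87, adjusted p 0.0282) and Hbb-bt by 3.69 (SE 0.81, adjusted p 0.0353). No embryonic gene passed on this scale. Hbb-bh1 differed by 2.41 (SE 0.65, adjusted p 0.0637), Hbb-y by −4.63 (SE 1.38, adjusted p 0.0830) and Hba-x by 0.28 (SE 0.86, adjusted p 0.880). Of all 7473 genes tested, 6.13% were called, 4.15% as higher in founders. With library size alone the calls turned from 310 higher and 148 lower to 192 higher and 840 lower, the median of all genes stood at −0.33, and Hbb-bh1 (2.03, adjusted p 0.0474) and Hbb-y (−5.0001, adjusted p 0.0337) passed beside the 4 adult genes by edgeR. The negative value of Hbb-y came from the F1_1 cell of embryonic kind. Without that cell and the F1_mix cell of 30% adult beta share Hbb-y was at 0.89 and only Hbb-bs passed (adjusted p 0.0430), while the log2 differences of the other 3 adult genes were 3.63 to 4.096 with adjusted p of 0.0540 to 0.0550 for the alpha genes and 0.0588 for Hbb-bt by edgeR. Hba-x was then at 2.02 (adjusted p 0.328) and Hbb-bh1 at 3.56 (adjusted p 0.0633), and 4.08% of all genes tested were called, 3.01% as higher in founders. Hbb-bh1 also moved with the founder left out, to 0.62 without F0_9 and to 3.19 without F0_8. The sizes also depended on the F1 suspension: the 4 adult genes differed by 2.83 to 3.32 without F1_1 and by 5.22 to 6.99 without F1_mix.

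Other erythroid genes moved with the adult globins in Erythroblast. Of 11 erythroid markers tested, 9 were higher in founders and 0 lower, with a median log2 difference of 1.41 against −0.00045 over all genes tested. In the same fit 6.13% of all genes tested were called, 4.15% as higher in founders. Alas2 differed by 3.35 (adjusted p 0.000680) and Slc4a1 by 2.64 (adjusted p 0.00851), while Gata1 (0.40) and Epor (0.74) did not pass. Of 16 globin regulators tested, 5 were higher and 0 lower: Sox6 by 2.17 (adjusted p 0.0107), and Tal1, Klf1, Zbtb7a and Dnmt1 by 0.62 to 0.89. Bcl11a, at −0.11 (adjusted p 0.855), did not pass, nor did Myb at −0.99 or Kit at −1.69. In bulk sums of a type, fewer cells of high globin content and less globin RNA per cell cannot be told apart. Cell by cell, those of 10% or more globin made up 46.9%, 53.8%, 14.3% and 4.76% of Erythroblast cells, with 1 such cell in each F1 suspension. The part of this in the sums was not tested.

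In Erythrocyte, 5 of the 7 globin genes were higher in founders and 0 were lower, where 15.1% of all 1819 genes tested were called and 9.68% as higher in founders. Hbb-bs was higher by 5.16 on the log2 scale (SE 0.64, adjusted p 0.000183), Hbb-bt by 2.64 (SE 0.38, adjusted p 0.000671), Hba-a2 by 1.99 (SE 0.35, adjusted p 0.00221), Hba-a1 by 1.85 (SE 0.34, adjusted p 0.00272) and Hbb-y by 1.21 (SE 0.35, adjusted p 0.0287). Hba-x differed by 0.73 (adjusted p 0.137) and Hbb-bh1 by −0.23 (adjusted p 0.602). These values depend on the scaling. Globin genes fill most of these libraries, and TMM factors, which match the bulk of other genes, shifted the log2 scale by −0.925 between founders and F1. With library size alone the median of all genes stood at −0.96, against −0.10 with TMM. On that scale Hbb-y was at 0.28 (adjusted p 0.421), Hbb-bh1 was lower by 1.16 (value −1.16, adjusted p 0.0104), Hba-x was at −0.18, and the 4 adult genes stayed higher, by 0.89 to 4.18, where 37.8% of all genes were called but 2.75% as higher in founders. The calls of the adult genes thus held on both scales, and that of Hbb-y did not.

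The difference of Hbb-bs was 4.13 without F0_8 and 6.78 without F1_mix. Without the 4 Erythrocyte cells of adult kind, Hbb-bs was still higher by 3.65 (adjusted p 6.71e-05), Hbb-bt by 2.13, Hba-a1 by 1.82 and Hba-a2 by 1.88, and 6 of 7 genes passed, Hba-x among them at 0.92 (adjusted p 0.0228), where 18.6% of all genes tested were called and 10.5% as higher in founders. Of 11 erythroid markers tested in this type, 3 were higher in founders (Alas2 by 1.09, Slc4a1 by 1.11, Nfe2 by 1.51). Of 7 regulators tested 1 differed, Dnmt1, lower by 2.34 (value −2.34, adjusted p 0.0284), a share near the 15.1% of all genes called in that fit.

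The shares give a comparison that needs no scaling between suspensions. In Erythrocyte, the adult beta share of summed UMIs was 22.8% and 12.7% in founders and 3.25% and 5.25% in F1, a difference of 13.5 points. Without the 4 cells of adult kind it was 9.71% and 9.21% in founders, a difference of 5.22 points. The adult alpha share was 49.1% and 37.5% against 24.4% and 27.5%, a difference of 17.4 points, and Hbb-bh1 made up 4.93% and 5.77% of embryonic beta UMIs against 14.5% and 12.2%, a difference of −7.97 points. The exact two-sided permutation test gave p = 0.3333 for each of these, the smallest p that 2 against 2 suspensions allow. In Erythroblast the adult beta share of summed UMIs was 99.2%, 96.5%, 24.03% and 96.9%, and founder and F1 values overlapped. Without the 2 Erythroblast cells of low adult beta share that of F1_1 was 94.4%, and they overlapped too. The other 4 Erythroblast shares set both founders on one side of both F1 suspensions, each with an exact permutation p of 0.3333. The adult alpha share was 99.5% and 95.5% against 41.7% and 90.8%, and without the 2 cells 95.1% and 90.8% in F1. The Hbb-bh1 share of embryonic beta UMIs was 94.5% and 98.5% against 18.2% and 92.8%, that of Hbb-bt in adult beta UMIs 36.5% and 37.5% against 48.8% and 45.3%, and that of Hba-a1 in adult alpha UMIs 61.98% and 60.6% against 63.1% and 65.5%. The family held 10 such comparisons, 5 shares in 2 types, and no adjusted p was under 0.370.

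Outside the red types globin RNA was sparse and even. In the cells of 10 deep types with under 1% globin, the 7 genes together stood at 1.10 to 1.43 UMIs per 10000. Ordered from the highest, these were Ependymal Cell (1.43, range over suspensions 1.23 to 1.65), Gut Mesenchyme/Amniotic Mesoderm (1.34, 1.20 to 1.41), CNS Neuron (1.31, 1.18 to 1.42), Chondrocyte (1.28, 1.20 to 1.39), Neuronal Progenitor (1.27, 1.16 to 1.42), Hematoendothelial Progenitor/Endothelium (1.27, 1.11 to 1.57), Mesodermal Progenitor (1.26, 1.21 to 1.38), Epithelial Cell (1.24, 1.0995 to 1.37), Neuroectoderm/Glia (1.24, 1.11 to 1.33) and Myoblast/Cardiomyocyte (1.0997, 0.987 to 1.20). Each neighbour's range overlapped the next. The 4 shallow types, of 722 to 1672 median UMIs against 10898.5 to 18842, stood higher, with Endodermal Progenitor at 8.88 (7.17 to 12.5), Midgut at 5.87 (4.52 to 7.75), Foregut at 4.32 (3.65 to 4.94) and Hepatocyte at 3.09 (2.16 to 3.89). Droplets outside the called cells held more again: 35.8 per 10000 in those of 100 to 300 gene UMIs and 213 in those of 1 to 100.

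The globin RNA outside red cells had a like makeup in every deep type. In the 10 deep types the adult beta share lay between 44.9% and 58.0%, the adult alpha share between 51.5% and 63.7%, and the Hbb-bh1 share of embryonic beta between 6.45% and 12.3%. Droplets of 1 to 100 gene UMIs gave 55.0%, 60.3% and 6.38%, and those of 100 to 300 gave 46.2%, 55.6% and 7.72%. All Erythroblast and Erythrocyte cells pooled gave 40.3%, 49.3% and 10.3%. Neither red type by itself had such a mix, with adult beta shares of 97.5% in Erythroblast and 10.9% in Erythrocyte. The level in deep types was 1.29, 1.27, 1.26 and 1.20 in the 4 suspensions although red cells made up 4.75%, 5.69%, 1.22% and 2.55% of their cells. The share of cells with a globin UMI ran from 72.6% to 90.7% in the deep types and from 43.3% to 47.8% in the shallow ones at full depth. Thinned to 1000 gene UMIs a cell, which kept 4908 of 5465 cells, the order turned, to 10.1% to 16.8% and 28.1% to 39.5%, in step with the levels.

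**Figure D5:**
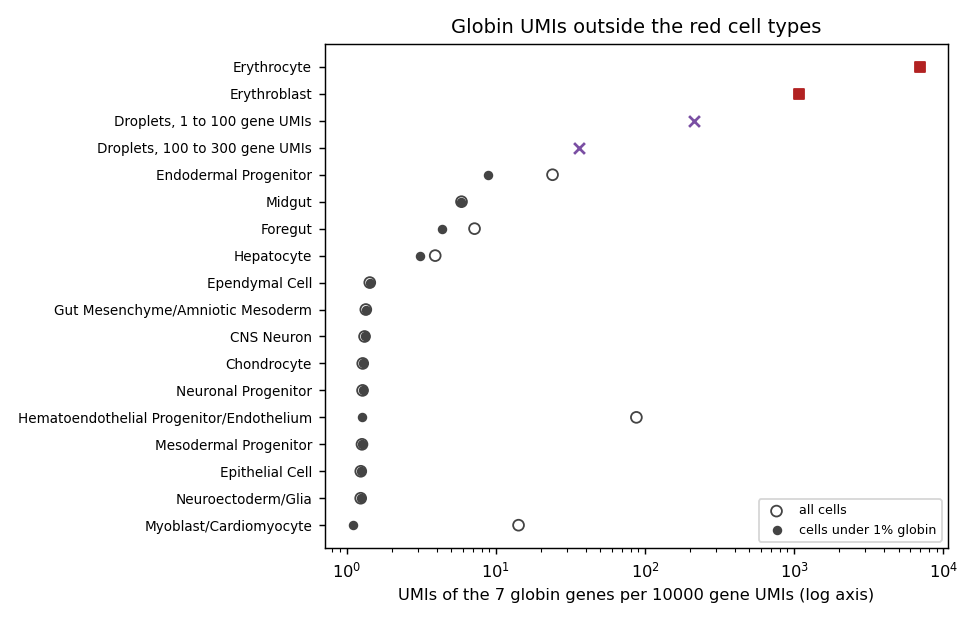
UMIs of the 7 globin genes per 10000 gene UMIs (log axis) in the other cell types, in droplets outside the called cells and in the red types; open circles hold all cells of a type and filled circles its cells under 1% globin. The 10 deep types lie close to 1, 4 shallow types between 3.09 and 8.88, and droplets at 35.8 and 213; single cells lift Hematoendothelial Progenitor/Endothelium to 87.4 and Myoblast/Cardiomyocyte to 14.2.

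Outside the red types 9 cells held 1% or more globin, and they carried 21.6% to 98.6% of the globin UMIs of their types. A Myoblast/Cardiomyocyte cell of F0_9 had 62361 gene UMIs, 8984 of them Hbb-y, and carried 92.3% of the globin UMIs of its 644-cell type. A Hematoendothelial Progenitor/Endothelium cell of F1_1 had 46613 gene UMIs, 6287 of Hbb-y, and carried 98.6%. Both lay above the median UMIs of their types (18369 and 17279.5) and inside the ranges of Erythrocyte cells of embryonic kind, with adult beta shares of 6.94% and 5.63%, adult alpha shares of 32.5% and 24.2%, and 48 and 61 UMIs of erythroid markers. A Foregut cell of F0_8 with 1213 gene UMIs was of adult kind instead, with 32 UMIs of Hbb-bs, 37 of Hba-a1 and 0 of the embryonic genes. An Endodermal Progenitor cell of F1_mix held 173 UMIs of Hbb-y.

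Founder and F1 suspensions were compared in those 13 other types where every suspension held at least 20 cells. Of 66 pairs of a globin gene and a type that could be tested, edgeR called 1, with 11 at an unadjusted p under 0.05, while 0.752% of the 99241 pairs of any gene and a type were called. Of the 11, 6 were the globin genes of Myoblast/Cardiomyocyte, with log2 differences of 1.09 to 6.04, and that type holds the F0_9 cell above. The called pair was Hbb-bs in Foregut, higher in founders by 2.82 on the log2 scale (SE 0.51, adjusted p 0.000128), and the F0_8 cell above held 32 of the UMIs. When the cells of 1% or more globin were left out of the 4 tested types that held any, edgeR called 0 of 61 pairs, with 1 at an unadjusted p under 0.05. DESeq2 called 0 of 66 pairs on all cells, with 7 at an unadjusted p under 0.05.

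The remaining genes of the loci were rare. Hbq1b, a theta-type gene of the alpha cluster, was at 0.628 UMIs per 10000 in Erythroblast and 1.11 in Erythrocyte, and was higher in founder Erythroblast cells by 2.54 (adjusted p 0.00976). Hbb-bh2 had 7 and 3 UMIs in the 2 types and Hbq1a 1 and 6. Among regulators of the switch, per 10000 UMIs outside globin genes, Bcl11a stood at 2.57 in Erythroblast against 0.126 in Erythrocyte, Sox6 at 2.81 against 0.357, Myb at 0.590 against 0.0210 and Lin28b, an RNA-binding protein of fetal programs, at 0.619 against 0.0839. Klf1 (3.70 and 3.67), Gata1 (1.63 and 1.85) and Zbtb7a (1.03 and 1.13) were close in the 2 types. Over 125 Erythroblast cells and 6955 genes, those whose levels followed the adult beta share most were Mrpl14 (Spearman's rho 0.42), Tpx2 (0.37), Fam53b (0.32), Nhej1 (0.32) and Fgfrl1 (0.31), and those that went against it most were Sap30l (−0.36), Serinc1 (−0.36), Eif5b (−0.35), Arl13b (−0.34) and Psma6 (−0.33). The extremes of so many weak correlations in sparse counts are no finding.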

How the data were processed

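A 10x Genomics 3′ v3.1 library held all 4 suspensions. Per the file headers and methods, the authors aligned reads with Cell Ranger to GRCm38 (mm10) plus EGFP and deposited UMI counts per gene and droplet, unnormalized, with a table of cell types made in Seurat after doublet removal. Counts were used as deposited, without the ambient correction (SoupX) that the methods name; 18 other columns of the table were not used. The members and lists were chosen with earlier results of these data known. Named genes were the 7 globins, listed regulators and markers, and the 5 highest and 5 lowest genes by correlation with the adult beta share among those detected in 20% of Erythroblast cells.

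Cells are not replicates. Counts were summed per type and suspension (3 or more red cells, 20 or more others) and tested with edgeR 4.0.16 (filterByExpr, TMM, quasi-likelihood, Benjamini-Hochberg, threshold 0.05), DESeq2 1.42.0 being an alternative. The fit was tested on simulated data with a single fixed spread for all genes and changes balanced up and down, a simpler setting than these libraries. SEs were derived from the quasi-likelihood F. Shares used exact permutation tests. Intervals are exact Poisson or Clopper-Pearson at 95% and limits at 0 are 3 counts of the total; both cover counting error only. With 2 suspensions a group, p-values measure the spread between suspensions.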

Additional observations from a re-analysis of the deposited data

Results flagged for a closer look

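Of 26 values compared over the 4 suspensions (levels and shares in both red types), 6 had a suspension far from the others by Dixon's criterion, which chance meets in about 1 of 20. All 6 were in Erythroblast cells. F1_1, with 7 cells, stood apart in Hbb-y (31.4 UMIs per 10000), the adult beta share (24.03%), the adult alpha share (41.7%), the Hbb-bh1 share of embryonic beta UMIs (18.2%) and the alpha share of all alpha and beta UMIs (39.1%). F0_9 stood apart in Hbb-bh1 (37.8 UMIs per 10000). Without the F1_1 cell of 876 Hbb-y UMIs and the F1_mix cell of 30% adult beta share, the adult beta share of F1_1 was 94.4% and its adult alpha share 95.1%.

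The Hbb-bh1 share of embryonic beta UMIs was higher in founders than in F1 by 41.0 points in Erythroblast and differed by −7.97 points in Erythrocyte, with both founders on one side of both F1 suspensions in each type. This difference between the types was not tested. Without the same 2 cells the difference in Erythroblast was 22.7 points, and the F1_1 share then rested on 10 Hbb-bh1 and 8 Hbb-y UMIs, with Hbb-y at a level not distinguishable from that of other cell types.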

How the results depend on the processing

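No paired analysis was possible because the suspensions carry no shared replicate numbers. With 2 suspensions a group and 7 Erythroblast cells in F1_1, depth and cell number limit every founder against F1 value. In Erythroblast 458 genes were called in the chosen fit, 203 with DESeq2, 947 with no filter beyond 1 count, 1032 with library size alone, 305 without the 2 Erythroblast cells of low adult beta share, and 285 to 608 when a suspension was left out (the lone sample of a group is then assumed to vary like the other group). Of the 7 globin genes 4 were called, 1 without those 2 cells, and 4 to 7 with a suspension left out. In Erythrocyte 275 were called, 120 with DESeq2, 179 with no filter, 687 with library size alone, and 78 without F0_8, 157 without F1_1, at most 283 with any suspension left out. In the other types 1 globin pair was called, 0 with DESeq2, 12 with no filter, 0 without cells of 1% or more globin, and 2 to 7 with a suspension left out.

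Direction turned for Hba-x in Erythroblast (0.28 on the log2 scale) with library size alone (−0.12), without F0_9 (−2.41) and without F1_mix (−0.33), with 1.30 at most when a suspension was left out, for Hbb-y in Erythroblast (−4.63) without F1_1 (0.89, with −5.65 without F1_mix at the other end) and without the 2 cells (0.89), and for Hba-x in Erythrocyte (0.73) with library size alone (−0.18). Hbb-y in Erythrocyte lost its call under RLE size factors, library size alone and 3 of the 4 left-out suspensions. The causes were not tested. Of 154 alternative values of single genes, 129 kept direction and side of the threshold, 11 passed newly, 8 no longer passed and 6 turned. Droplets of 1 to 100 gene UMIs held 213 globin UMIs per 10000 against 35.8 in those of 100 to 300. With no filter, or with a founder left out, the Erythroblast fits gave standard errors of 0.05 to 0.11 for the adult genes, against 0.52 to 0.87 in the chosen fit, so calls gained there carry no added weight. Library size alone and the settings that leave out cells were chosen after seeing the data.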
